A study of Homo sapiens with 3 samples.

Results

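Metallothioneins are small, cysteine-rich proteins that bind zinc, copper and cadmium, and they are known as buffers of free zinc in the cell. Their genes are switched on by MTF1, the metal-responsive transcription factor, which senses zinc and binds short promoter elements called metal response elements. SLC30A1 encodes ZnT1, a transporter that carries zinc out through the plasma membrane and is a further target of MTF1. The genes described here were chosen by symbol: 7 metallothionein genes (MT1A, MT1E, MT1F, MT1G, MT1M, MT1X and MT2A), MTF1 and SLC30A1. All 9 were listed in at least 1 of the 3 libraries, among 18856 genes listed in any of them.

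The cell lines were HBE, of human bronchial epithelium, and A549, from an adenocarcinoma of the alveolar epithelium. Both were sequenced by LIEA, and HBE by Smart-seq2 as well. Each library was made from 10 pg of polyA+ mRNA diluted from bulk mRNA, no treatment is named in the labels, and there was 1 library per condition and therefore no replicate and no p-value. LIEA ligates adapters to fragmented mRNA and was read on an Ion Proton sequencer, while Smart-seq2 primes full-length cDNA with oligo-dT, amplifies it before library construction and was read on Illumina. The unit throughout is log2 rpkM, the log2 of reads per kilobase of transcript, scaled to the mapped reads of the library, or rpkM itself, so levels compare per length. Reads per gene were worked out from these values, and every interval below is a 95% exact interval for the counting of reads only. By LIEA the mapped reads totalled 4605855 in HBE and 4154060 in A549, and Smart-seq2 gave 9845150. A gene that is not listed had no mapped read. The 95% interval then reaches 3.69 reads, or 1.75 rpkM for MT1E in A549. Bounds against such a gene set it at 3 reads, 1.43 rpkM for MT1E in A549, and leave out counting error. The cell lines stand for the lung epithelium here, and what separates the lines and what separates single libraries cannot be told apart.

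The labels were checked against marker genes. All 5 epithelial markers were listed with at least 10 reads in each library. The 4 basal airway keratin and TP63 genes summed to 1686 rpkM in LIEA of HBE and 6125 in Smart-seq2 of HBE, against 8.28 in LIEA of A549, where KRT14 was not listed. AKR1B10, AKR1C1 and ALDH1A1, enzymes abundant in A549, summed to 8777 rpkM in A549 and to 82.6 and 103.5 in the HBE libraries. CDKN2A, which is deleted in A549, was listed in no library and so did not separate the lines. Of the markers of other cell types, the 2 erythroid genes had no reads, the 4 fibroblast genes summed to between 1.46 and 6.41 rpkM with DCN and COL1A2 listed nowhere, the 4 leukocyte genes to between 28.0 and 51.95 with CD3E listed nowhere, and the 3 endothelial genes to 12.3 and 10.9 rpkM in the HBE libraries against 0.487 in A549. The part of the last difference in the results below was not tested.

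The metallothionein transcripts are short and alike, which bears on how reads are told apart. In the annotation of GRCh37 the 7 genes lie within one cluster of chromosome 16 with 3 exons each, from MT2A at chr16:56642496-56643409 to MT1X at chr16:56716382-56718108, and MT1G alone is on the minus strand. MT1E lies 16.9 kb from the MT2A start, at chr16:56659387-56661024, and MT1X 73.9 kb from it. MTF1 (chr1:38275246-38325264) and SLC30A1 (chr1:211744910-211752503) lie on the minus strand of chromosome 1. Each metallothionein member has a coding sequence of 186 bases, with 61 codons before the stop, of which 20 encode cysteine. The coding sequences of the 3 most abundant genes of the HBE libraries are shown, exonic and joined over the 3 exons, with the bases of MT1E and MT1X that differ from MT2A in capitals.
MT2A: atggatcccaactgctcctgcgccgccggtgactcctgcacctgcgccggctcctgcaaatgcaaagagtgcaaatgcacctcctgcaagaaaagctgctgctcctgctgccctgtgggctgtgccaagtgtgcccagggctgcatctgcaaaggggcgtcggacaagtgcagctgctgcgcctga
MT1E: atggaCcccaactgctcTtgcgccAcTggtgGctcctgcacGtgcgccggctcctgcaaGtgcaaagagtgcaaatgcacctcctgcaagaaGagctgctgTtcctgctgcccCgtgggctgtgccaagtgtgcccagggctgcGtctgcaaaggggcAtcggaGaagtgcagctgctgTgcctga
MT1X: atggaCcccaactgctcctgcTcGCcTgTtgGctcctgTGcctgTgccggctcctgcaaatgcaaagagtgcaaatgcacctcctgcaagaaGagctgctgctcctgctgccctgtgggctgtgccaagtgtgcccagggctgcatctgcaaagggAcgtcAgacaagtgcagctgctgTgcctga
Both MT1E and MT1X differed from MT2A at 14 of 186 positions, and the differences fell singly or in short groups between long shared runs. Over the 7 members, identity to MT2A ranged from 89.8% for MT1M to 95.2% for MT1G. The closest pair apart from MT1G and MT2A was MT1A with MT1E, tied with MT1E and MT1G, at 94.6%.

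LIEA reads longer than 42 bases were kept and mapped with up to 3 errors, so windows of 43 bases were compared between the annotated transcripts of the family, pseudogenes included. Of the windows of MT2A, 35.7% lay within 3 mismatches of another family gene and 8.64% were identical to one. For MT1E the shares were 35.6% and 7.55%, and for MT1X 33.4% and 19.1%. MT1M was the most alike of the members, with 76.7% of windows within 3 mismatches, and MT1G followed with 59.6%. With windows of 80 bases, the shares within 3 mismatches dropped to 24.2% for MT2A, 22.6% for MT1E and 21.8% for MT1X, and no window of MT2A or MT1E was identical to another gene. The values of members with few reads are therefore uncertain, since an exchange of reads with an abundant relative cannot be seen in gene totals.

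**Figure D1:**
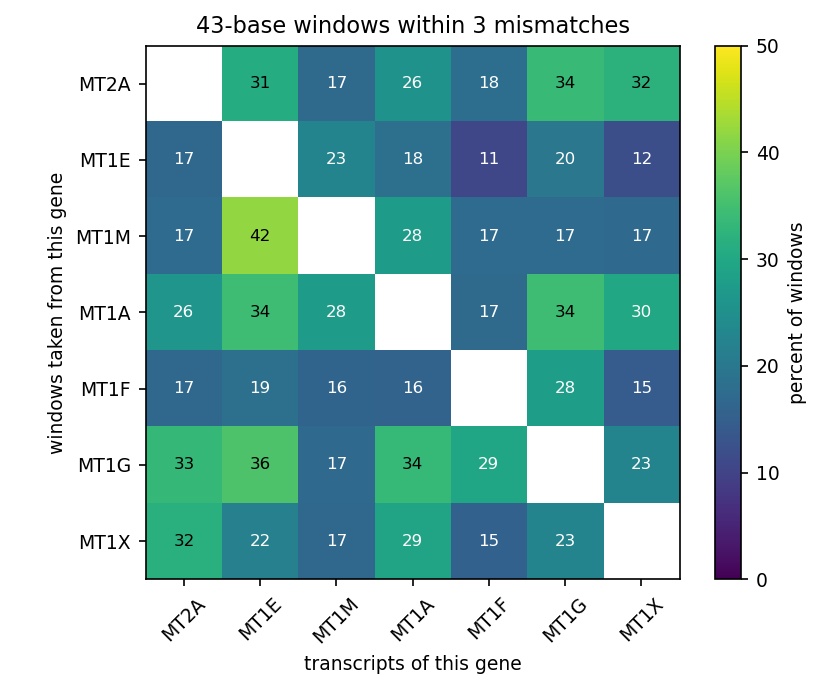
Percent of 43-base windows of each metallothionein transcript (rows) that lie within 3 mismatches of any annotated transcript of another member (columns); the diagonal is left blank. The highest cell is MT1M against MT1E, at 41.9%, and the windows of MT2A are shared most with MT1G, at 33.7%.

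The promoter sequences of MT2A and MT1X are shown because these genes were listed in all 3 libraries and differed between the cell lines by different amounts. They cover the 250 bases before the gene start, from RefSeq on GRCh38.p14, plus strand. The table matched 4 of the 9 members, MT2A, MT1X, MTF1 and SLC30A1. Capitals mark the core of the metal response element, searched as TGCACNC and TGCGCNC on both strands.
MT2A, chr16:56608334-56608583: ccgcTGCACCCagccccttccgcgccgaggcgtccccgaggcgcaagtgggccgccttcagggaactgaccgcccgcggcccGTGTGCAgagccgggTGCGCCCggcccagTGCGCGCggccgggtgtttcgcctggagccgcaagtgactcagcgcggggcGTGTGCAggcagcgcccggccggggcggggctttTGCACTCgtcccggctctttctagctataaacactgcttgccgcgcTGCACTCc
MT1X, chr16:56682220-56682469: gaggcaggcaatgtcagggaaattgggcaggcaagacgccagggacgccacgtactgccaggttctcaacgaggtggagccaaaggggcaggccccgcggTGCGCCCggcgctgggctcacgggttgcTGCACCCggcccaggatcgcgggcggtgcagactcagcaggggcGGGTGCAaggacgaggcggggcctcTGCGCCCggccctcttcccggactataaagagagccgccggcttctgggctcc
The MT2A window held 7 matches, 5 on the plus and 2 on the minus strand, which do not overlap each other. The MT1X window held 4, of which 1 was on the minus strand. Of 35116 promoter windows of this length, 24.8% held at least 1 match, 0.370% held at least 4 and 0.0313% held at least 7. SLC30A1 had 1 match, and MTF1 had no match in this window. Match number did not follow level: of the other metallothionein genes in the table, MT1H held 8 matches with at most 13 reads in any library, MT1B held 3 with at most 2 reads, and MT4, listed in none, held 3. A match is a string of letters and does not show binding.

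In the HBE libraries metallothionein mRNA was abundant, and it came mostly from MT2A, MT1E and MT1X. MT2A, the main metallothionein of most human tissues, reached 10.41 log2 rpkM (2620 reads) in LIEA of HBE, 9.22 (2461 reads) in Smart-seq2 of HBE and 6.26 (133 reads) in LIEA of A549. It ranked 30th, 93rd and 842nd by rpkM among the genes of these libraries. MT1E was at 8.67 (947 reads) in LIEA and 7.78 (1094 reads) in Smart-seq2 of HBE, and it was not listed in A549. MT1X was at 7.20 (274 reads) and 7.18 (578 reads) in the HBE libraries and at 5.50 (76 reads) in A549. For all 3 genes both HBE libraries were above the A549 library, and no counting interval of A549 reached one of HBE. The reads of MT1E, unlike its rpkM, rest on a length of 506 nt recovered from the values. The annotated transcript used for its windows has 704 nt. Its reads may be a whole multiple of those given, which would raise its rank by reads and its bounds against 3 reads.

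The remaining metallothionein members, MT1F, MT1G, MT1A and MT1M, were below MT2A and MT1X in every library. By rpkM, MT1F ranked 4123rd of 16077 listed genes in LIEA of HBE, and MT1G 3784th of 16502 in Smart-seq2 of HBE. MT1F had log2 rpkM of 4.15 in LIEA of HBE (36 reads), 3.84 by Smart-seq2 (62 reads) and 3.13 in A549 (16 reads). MT1G had 3.66 (23 reads), 4.25 (74 reads) and 0.87 (3 reads) in the same order. MT1A had 2.45 (10 reads), 2.79 (27 reads) and 1.87 (6 reads). The A549 value was the lowest of the 3 for each of these genes, although for MT1F and MT1A its interval overlapped those of both HBE libraries. MT1M was represented by 1 read in LIEA of HBE (-1.02 log2 rpkM) and was not listed in the others. Of its windows of 43 bases, 76.7% lay within 3 mismatches of a relative, and of those of 80 bases 30.4%, which leaves this value uncertain.

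**Figure D2:**
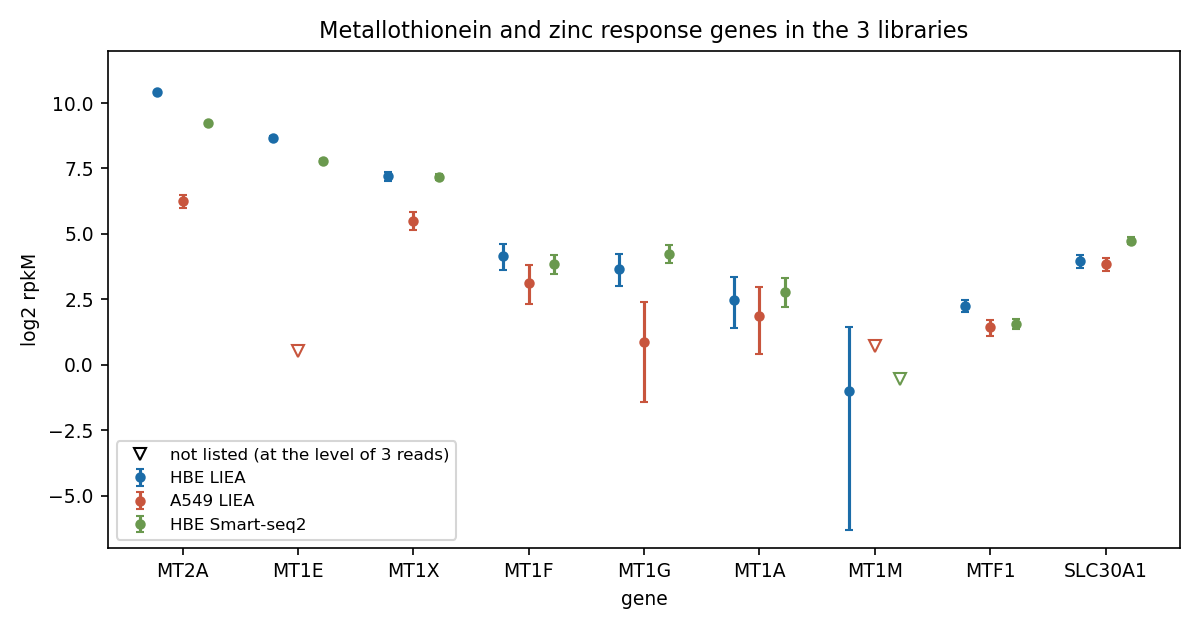
log2 rpkM of the 9 genes (x axis) in the 3 libraries (colours); points are deposited values, bars the 95% exact Poisson interval of the reads, and open triangles mark genes that were not listed, drawn at the level of 3 reads. MT2A, MT1E and MT1X of the HBE libraries sit at 7.18 or above, and the A549 points of MT2A and MT1X lie at 6.26 and 5.50.

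The order of the levels was similar but not the same in each library. In LIEA of HBE it was MT2A, MT1E and MT1X, each with an interval apart from the next, then MT1F, SLC30A1, MT1G, MT1A and MTF1, of which each overlapped the next, and last MT1M, below MTF1 without overlap. In Smart-seq2 of HBE the same 3 genes led, followed by SLC30A1 at 4.75, MT1G at 4.25 and MT1F at 3.84, of which MT1G and MT1F overlapped, then MT1A and MTF1, apart from each other. In A549 MT2A at 6.26 and MT1X at 5.50 led with intervals that did not overlap, followed by SLC30A1, MT1F, MT1A, MTF1 and MT1G, of which each overlapped the next.

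Over the 3 libraries the levels of MTF1 and SLC30A1 spanned less than those of MT2A. MTF1 was at 2.24 log2 rpkM in LIEA of HBE (174 reads), 1.57 by Smart-seq2 (233 reads) and 1.43 in A549 (89 reads). The Smart-seq2 and A549 values of MTF1 had overlapping intervals, and LIEA of HBE stood above both. SLC30A1 was at 3.95 in LIEA of HBE (144 reads), 4.75 by Smart-seq2 (533 reads) and 3.84 in A549 (120 reads). Here the LIEA libraries of the different cell lines overlapped and the Smart-seq2 library was higher. The length recovered for SLC30A1, 2018 nt, is shorter than its annotated transcript, so its reads may be a whole multiple of those given, which would narrow the intervals and leave the ratios as they are.

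Between the cell lines by LIEA, the metallothioneins were lower in A549, by amounts that differed widely from gene to gene. Of the 7 members with at least 10 reads in LIEA of HBE or of A549 and listed in both, 4 were more than 2-fold lower in A549, all of them metallothioneins, and none was more than 2-fold higher. Over all 12925 such genes, 20.2% were more than 2-fold lower and 18.0% more than 2-fold higher. The remaining members were MT1E, which A549 did not list, and MT1M with its single read. MT2A was lower by 17.8-fold, with a log2 ratio of A549 to HBE of -4.15 (95% interval -4.41 to -3.90). This was the 146th lowest ratio among 8108 genes with at least 100 reads in either library. MT1G followed with -2.79, an interval from -5.17 to -1.06 that rests on 3 reads in A549. MT1X had a log2 ratio of -1.70 (-2.09 to -1.33) and MT1F of -1.02 (-1.97 to -0.13), which reaches across the 2-fold line. With ratios centred on the median, or on the log2(rpkM + 1) scale, MT1F was at -0.86 or -0.94 and the count of lower members was 3. MT1A had -0.59 with an interval from -2.33 to 1.01, so that no direction was detectable at this depth.

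MT1E was the member with the sharpest contrast. It had 947 reads in LIEA of HBE and none in A549, which is 285-fold lower when A549 is set at 3 reads. Of the 12285 genes with at least 10 reads in LIEA of HBE, 1.86% were not listed in A549, 228 in number. Among all 1243 genes listed in LIEA of HBE and not in A549, MT1E had the highest rpkM, 406, and was 3rd by reads. Against Smart-seq2 of HBE, with 1094 reads, the A549 level set at 3 reads was 154-fold lower. Of the 12895 genes with at least 10 reads in Smart-seq2, 2.85% were not listed in A549. The 237 metallothionein reads of A549 included none assigned to MT1E. Of the short windows of MT2A, 30.9% lie within 3 mismatches of MT1E, but such reads can still fit MT2A better. The absence of MT1E reads therefore does not show whether reads were exchanged.

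The ratios of the regulator and the exporter lay within 2-fold, as did those of 7991 of the 12925 genes compared above. MTF1 was at a log2 ratio of A549 to HBE by LIEA of -0.82 (-1.20 to -0.44), an interval across the 2-fold line. SLC30A1 was at -0.11 (-0.48 to 0.25). The median ratio over genes with at least 10 reads in both LIEA libraries was -0.16, so relative to the bulk of genes each ratio is higher by 0.16. All 7 members listed in both LIEA libraries were below 0, as were 7219 of the 12925 genes. Their median was -1.02, against -0.15 for all of those genes.

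**Figure D3:**
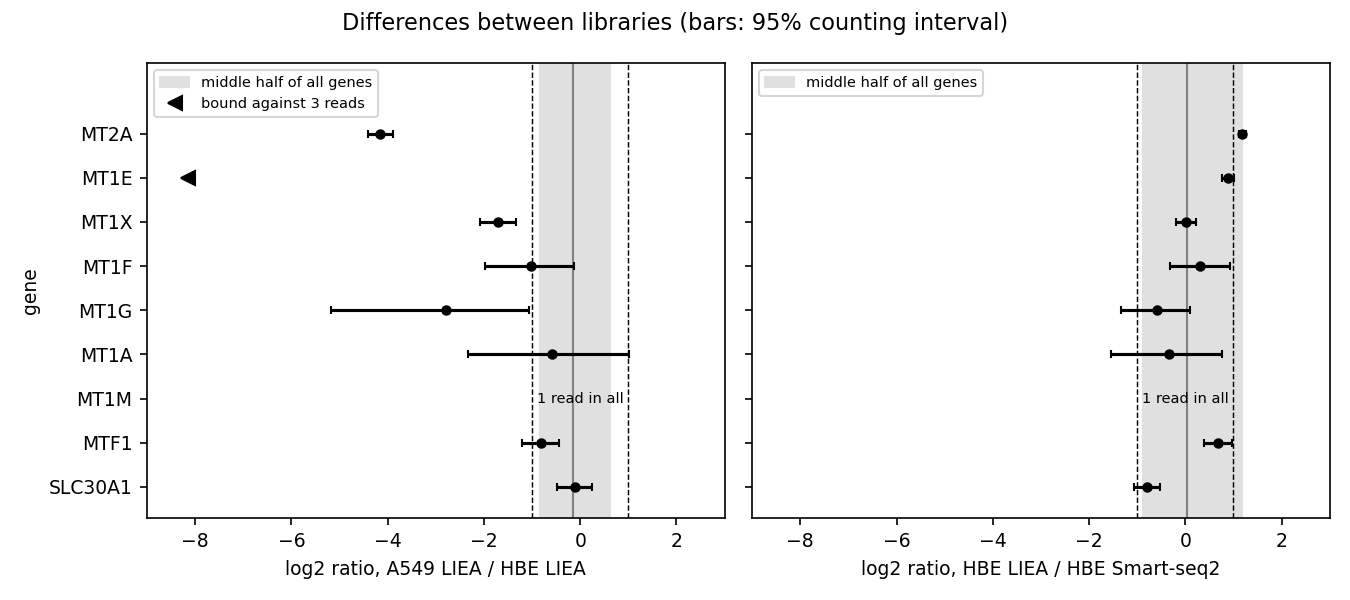
log2 ratios of the 9 genes for A549 over HBE by LIEA (left) and LIEA over Smart-seq2 in HBE (right); bars are 95% exact counting intervals, the triangle is the bound for MT1E at 3 reads in A549, dashed lines mark 2-fold and the grey band runs between the quartiles of all genes. On the left MT2A lies at -4.15 and MT1X at -1.70, outside the band, and SLC30A1 at -0.11 inside it; on the right MT2A lies past the 2-fold line, at 1.19, at the edge of the band.

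The make-up of the family differed between the libraries. Summed over all metallothionein genes and pseudogenes listed, the level was 1960 rpkM in LIEA of HBE, 1004 in Smart-seq2 of HBE and 137 in LIEA of A549. The A549 sum was 14.3-fold below LIEA of HBE and 7.30-fold below Smart-seq2 of HBE. MT2A made up 69.3% of the sum in LIEA of HBE, 59.4% by Smart-seq2 and 55.6% in A549. MT1E made up 20.7% and 21.9% in the HBE libraries, and MT1X 7.51% and 14.5% there against 32.9% in A549. Within a library, where the scaling to totals drops out, MT2A was 9.22 times MT1X in LIEA of HBE (95% interval 8.14 to 10.5), 4.11 times in Smart-seq2 (3.75 to 4.50) and 1.69 times in A549 (1.26 to 2.27). None of these intervals overlapped another, and the A549 ratio was the lowest.

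Of the 7 metallothionein members along the cluster, MT2A at one end and MT1X at the other were listed in all 3 libraries. So were MT1A, MT1F and MT1G, which lie between them, at lower levels in each library. MT1E, also between the end genes, was high in HBE and not listed in A549. MT3 and MT4 lie beyond MT2A. Of the 10 further metallothionein genes and pseudogenes looked for, MT1H had 13 reads in LIEA of HBE (2.83 log2 rpkM), 4 by Smart-seq2 (0.03) and 1 in A549 (-0.72). MT1HL1, MT1JP, MT1DP, MT1B and MT1IP had at most 3 reads in any library. MT1L, MT1CP, MT3 and MT4 were listed in none. Thus 10 metallothionein genes were listed in LIEA of HBE, 9 in Smart-seq2 of HBE and 7 in A549.

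**Figure D4:**
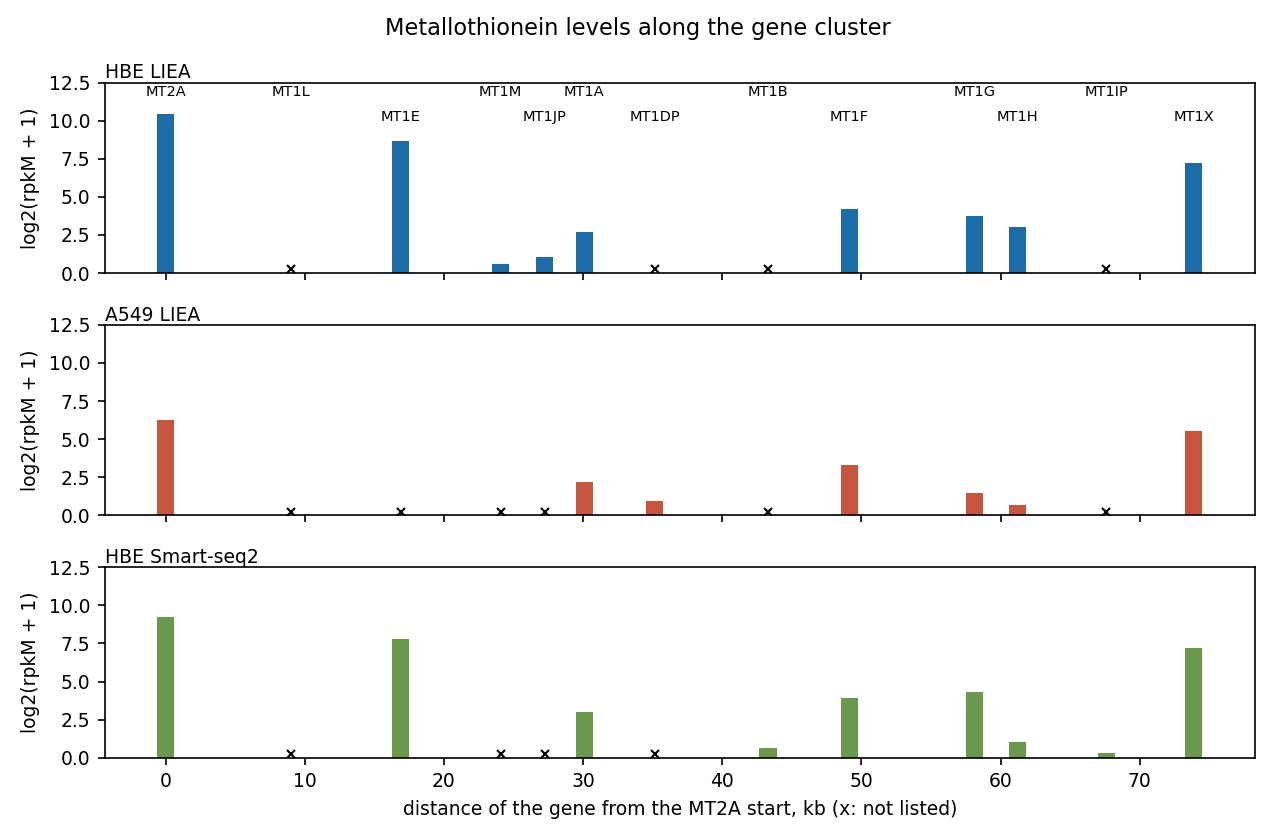
log2(rpkM + 1) of the metallothionein genes and pseudogenes from MT2A to MT1X (bars, y axis) against the distance in kb from the MT2A start in GRCh37 (x axis), 1 panel per library; crosses mark genes not listed. MT1E, 16.9 kb from MT2A, stands at 8.67 log2 rpkM in LIEA of HBE and is crossed out in A549, while MT1X at 73.9 kb is present in each panel.

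The Smart-seq2 library reads HBE mRNA by another method. Of the 8 members with at least 10 reads in either HBE library and listed in both, only MT2A was more than 2-fold higher in LIEA, and none was more than 2-fold lower, while as TPM MT1E passed 2-fold as well, at 1.09. Over all 13254 such genes, 28.1% were more than 2-fold higher and 21.9% more than 2-fold lower in LIEA. The log2 ratio of the LIEA level to that by Smart-seq2 was 1.19 (1.11 to 1.27) for MT2A and 0.89 (0.76 to 1.01) for MT1E. MT1X had 0.02 (-0.19 to 0.23), an interval that lies within 2-fold in either direction. MTF1 was higher in LIEA, at 0.67 (0.38 to 0.96), and SLC30A1 was lower, at -0.79 (-1.07 to -0.52). MT1F, MT1G and MT1A had ratios of 0.31, -0.59 and -0.34, each with an interval that held 0.

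Over all genes, the median of this ratio rose with GC content and differed between classes of length. The 168 genes of 300 to 600 nt with at least 10 reads in both HBE libraries had a median of 0.01 for the same log2 ratio, against -0.40 for the 2813 genes of 600 to 2000 nt and 0.22 for the 8398 of 2000 to 10000 nt, so that the medians do not follow length in one direction. The recovered lengths of the metallothionein members lay between 396 and 506 nt, and MT2A, with 1.19, lay above the upper quartile of that class. By GC content, genes below 45% had a median of -0.46, genes from 45 to 55% one of 0.23 and genes from 55 to 65% one of 0.75. The annotated transcripts of the metallothionein members had GC contents of 48.2 to 52.9%, MTF1 46.6% and SLC30A1 40.7%. In the class of 45 to 55%, which holds MT2A, the upper quartile was 1.20, so MT2A lay just below it. The part of length and GC content in the single ratios was not tested.

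The A549 library also stood below Smart-seq2 of HBE for these genes. Of 7 members, 3 were more than 2-fold lower in A549 and none higher by that much, where 29.4% of 13285 genes were lower and 30.7% higher. The log2 ratio of A549 LIEA to HBE Smart-seq2 was -2.96 (-3.23 to -2.71) for MT2A, -3.38 (-5.69 to -1.78) for MT1G and -1.68 (-2.05 to -1.34) for MT1X. These 3 were the members more than 2-fold below both HBE libraries, among the 7 listed in all 3 libraries. Over 13246 genes listed in all 3 with at least 10 reads in any, 12.7% were. All 7 were below both HBE libraries by some amount, against 38.4% of the genes. The interval spanned both directions for MT1F, MT1A and MTF1 against Smart-seq2, and for MT1A and SLC30A1 against LIEA of HBE. This second comparison differs in method as well as in cell line, and it shares the A549 library with the first.

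The genes that move zinc across membranes were compared between the cell lines by LIEA, where 7991 of the 12925 genes lay within 2-fold, 18.0% were higher and 20.2% lower in A549. The ZnT family mostly exports zinc from the cytosol. Of its 10 genes, 7 had at least 10 reads in either LIEA library and were listed in both. Of these, 1 was more than 2-fold higher in A549, none was lower by that much, 6 lay within 2-fold, and the median log2 ratio was -0.11. SLC30A3, a vesicular transporter, had 18 reads in A549 against 5 in HBE, with an interval of 0.51 to 3.78 for the log2 ratio. SLC30A9, SLC30A4 and SLC30A7 had ratios of -0.90, -0.94 and -0.61, and that of SLC30A4 had an interval across 0.

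The ZIP family brings zinc into the cytosol, and 10 of its 14 genes met the same condition. Of these, 1 was more than 2-fold higher in A549 and 2 were lower by that much, near the shares of 18.0% and 20.2% over all genes, with 7 within 2-fold and a median of -0.05. The higher gene was SLC39A14, an importer of zinc, iron and manganese, at 1.20 (0.99 to 1.40) with 599 reads in A549 and 290 in HBE. The lower ones were SLC39A6 at -1.55 (-1.90 to -1.20) and SLC39A8 at -1.11 (-1.49 to -0.73), both importers of the plasma membrane. SLC39A7, which releases zinc from the endoplasmic reticulum, was at -0.91. SLC39A4, the importer by which the gut takes up dietary zinc, was not listed in LIEA of HBE and had 99 reads in A549. That is 36.6-fold higher when LIEA of HBE is set at 3 reads, with counting error left out. Smart-seq2 of HBE held 5 reads of it, and the log2 ratio of A549 to that library was 5.55 (4.28 to 7.21).

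**Figure D5:**
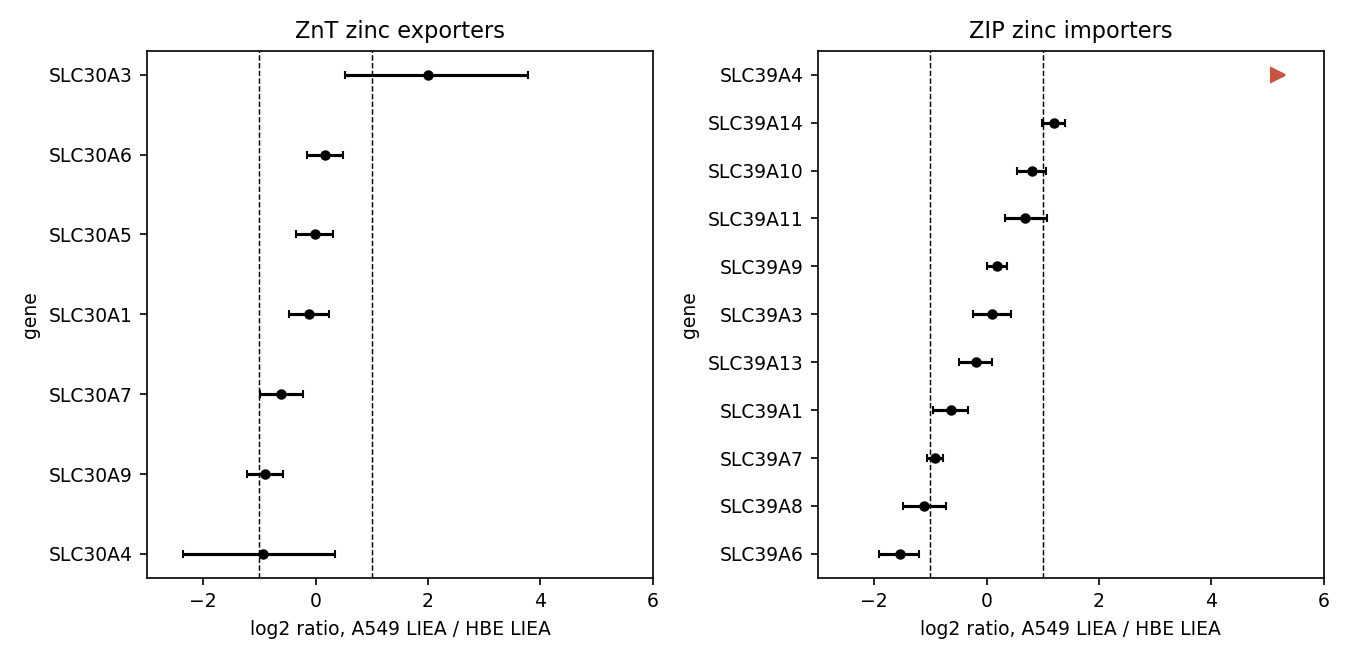
log2 ratio of A549 to HBE by LIEA (x axis) for the ZnT exporters (left) and ZIP importers (right) with at least 10 reads in either library; bars are 95% exact counting intervals, dashed lines mark 2-fold, and the triangle is the bound for SLC39A4 with HBE at 3 reads. Most genes lie between the dashed lines, with SLC39A6 at -1.55 the farthest to the left and SLC30A3, on 18 and 5 reads, the point farthest to the right.

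Between the methods in HBE, most transporters had log2 ratios below 0, 5 of 7 ZnT and 9 of 10 ZIP genes, as had 6483 of all 13254 genes, of which 28.1% were more than 2-fold higher and 21.9% lower in LIEA. Of the ZnT genes, 2 were more than 2-fold lower in LIEA, SLC30A7 at -1.42 (-1.68 to -1.18) and SLC30A5 at -1.13 (-1.38 to -0.89), and the median was -0.46. Of the ZIP genes, 2 were lower by that much, SLC39A3 at -1.27 (-1.53 to -1.02) and SLC39A8 at -1.02 (-1.25 to -0.79), and the median was -0.64, while the median over all such genes was 0.04. None of either family was more than 2-fold higher in LIEA.

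Genes with the profile most like MT2A over the 3 libraries were CDS1, HAS3 and ANXA8L1, at distances of 0.16, 0.21 and 0.21 in centred log2 rpkM among 9819 genes. The profile of HAS3 was 6.19 in LIEA of HBE, 4.73 by Smart-seq2 and 1.82 in A549, and that of CDS1 was 3.90, 2.75 and -0.43. With 3 libraries such likeness describes the values and nothing more.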

How the data were processed

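The deposited values are log2 rpkM with no pseudocount, which the authors computed after FANSe2 mapping to RefSeq-RNA (a larger error allowance for Ion Proton reads) and after pooling splice variants by gene. The submitters' processing notes name hg19. How reads that fit several genes were assigned is not given in the sources used here. Blank rows of the Smart-seq2 table and 4 rows per library whose gene names had become dates were left out.

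The total of each library was taken as the largest whole number at which most of the lowest 300 genes gave whole transcript lengths, which held for 94.7% (HBE) and 95.3% (A549) of them by LIEA and for 89.0% by Smart-seq2. All 18856 genes then gave whole reads, up to a common whole factor of reads and length, which was set from GENCODE transcript lengths and was above 1 for 863 genes. The step was tested on simulated data of the 3 libraries, where it found all 3 totals and the exact reads of 93.6% of 18274 genes. The simulation took the lengths set by the step and the same annotation, so it could not show a wrong common factor. Intervals are Poisson for reads and Clopper-Pearson for ratios, and cover counting error only, since PCR copies are not separate molecules. With 1 library per condition there was no test. Calls used genes with at least 10 reads in either library and listed in both, and a fold of 2. The members and lists were chosen with earlier results of these data known. Other genes were named by a rule: the largest ratios of each list, and the 3 genes nearest to MT2A and to MT1X among those with at least 100 reads in any library and listed in all. The genes nearest to MT1X are not reported here. The promoters and annotation came from RefSeq and GENCODE release tables. The tools were pandas 2.3.3, scipy 1.17.1, matplotlib 3.10.9 and numpy 2.4.6 under Python 3.11.15. Another fold, no read filter, a pseudocount of 1, TPM and centring on the median were tried.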

Additional observations from a re-analysis of the deposited data

How the results depend on the processing

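No paired analysis was possible because no group holds more than 1 sample, which also leaves no replicate to drop. Alternatives gave 119 values, of which 93 stayed within their limit, 1.5 times for a count and the 95% counting interval for a ratio, and 26 moved. Centring on the median turned the sign of 2 ratios whose counting intervals held 0, SLC30A1 of A549 to HBE by LIEA to 0.05 and MT1X of LIEA to Smart-seq2 to -0.08. As TPM, the ratio of LIEA to Smart-seq2 was 1.39 for MT2A and 1.09 for MT1E, and that of MT2A was 1.09 when centred. With a fold of 4, the members lower in A549 than HBE by LIEA numbered 2, the members higher in LIEA than Smart-seq2 0, and in the transporter lists the ZnT genes higher in A549 0 and lower in LIEA 0, the ZIP genes higher in A549 0, lower in A549 0 and lower in LIEA 0. With a fold of 1.5, the members higher in LIEA than Smart-seq2 numbered 3 and lower 2, the ZnT genes lower in A549 3 and higher in LIEA 1, and the ZIP genes higher in A549 3, lower in A549 4 and lower in LIEA 5. Without the read filter, 1 ZnT and 1 ZIP gene were higher in LIEA than Smart-seq2. With centring on the median 1 ZIP gene was lower in A549, and with log2(rpkM + 1) 1 was lower in A549 and 1 lower in LIEA. The log2 ratio of the summed metallothionein rpkM of A549 to HBE was -3.30 without MT2A, against -3.83 with it. That of LIEA to Smart-seq2 was 1.16 as TPM, 0.87 centred and 0.57 without MT2A, against 0.97. Smallest whole reads, chosen after seeing the data, left the counts of members as they were. Genes with under 10 reads, MT1M, MT1A in A549 and MT1G in A549, are limited by depth.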

Other observations

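Genes that respond to the other known inducers of metallothioneins were compared as well. Of 7 glucocorticoid targets, 5 were more than 2-fold higher in A549 than in HBE by LIEA, where 18.0% of all genes were, and none was lower by that much. SGK1, a kinase, had 299 reads in A549 and 11 in HBE, a log2 ratio of 4.91 (95% interval 4.05 to 5.93). ZFP36, an mRNA decay factor, had 3.55 (3.26 to 3.84), TSC22D3, a classical glucocorticoid target, 2.71 (2.27 to 3.18) and DUSP1, a phosphatase, 2.41 (2.26 to 2.56). FKBP5, a chaperone partner of the glucocorticoid receptor, went the other way, with -0.89 (-1.28 to -0.50) and, against Smart-seq2 of HBE, -1.35 (-1.71 to -1.02). SGK1 was also at 351 reads in Smart-seq2 of HBE, so its level in LIEA of HBE differed from that of the other HBE library by a log2 ratio of -3.90 (-4.92 to -3.04), and PER1 differed by 3.79 (3.29 to 4.32) the other way. Against Smart-seq2 of HBE, the A549 ratio of SGK1 was 1.01 (0.79 to 1.24).

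Of 7 metal and oxidant targets, 4 were more than 2-fold higher in A549 by LIEA and 1 was lower by that much, against 18.0% and 20.2% of all genes. HMOX1, heme oxygenase 1, had 1079 reads in A549 and 14 in HBE, a log2 ratio of 6.42 (5.66 to 7.29), with 155 reads in Smart-seq2 of HBE, against which the ratio was 4.04 (3.80 to 4.30). TXNRD1 and SRXN1, enzymes of thiol repair, had 3.14 (3.04 to 3.24) and 3.13 (2.94 to 3.32), and GCLM of glutathione synthesis had 1.44 (1.18 to 1.71), but -0.54 (-0.71 to -0.39) against Smart-seq2 of HBE. HSPA1B was lower at -1.16 (-1.39 to -0.95) but higher at 1.43 (1.16 to 1.70) against Smart-seq2 of HBE. It shares nearly all of its sequence with HSPA1A, at 0.50, so the split of reads between them is uncertain.

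Copper is the other physiological metal bound by metallothioneins. Of 11 copper handling genes, 1 was more than 2-fold higher and 1 more than 2-fold lower in A549 by LIEA, against 18.0% and 20.2% of all genes. They were the copper pumps ATP7A, at 2.96 (2.39 to 3.59) with 197 reads in A549 and 28 in HBE, and ATP7B, at -1.07 (-1.58 to -0.57) with 49 and 114 reads. Against Smart-seq2 of HBE, with 76 and 36 reads, ATP7A was again higher in A549 at 2.62 (2.23 to 3.02), but the direction of ATP7B reversed, to 1.69 (1.04 to 2.35).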
